A study of Danio rerio with 37 samples.

Results

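The 7 zebrafish genes described here are ostf1, pdlim1, aga, iars2, hnrnpm, zgc:91910 and zgc:100918. They were chosen from these same data because each was lower in Cas7-11 knockdown embryos than in the matching control embryos at both doses of GFP, so their Cas7-11 values are a description and carry no test. All 7 were found by symbol in the deposited expression tables, joined to the count tables by Ensembl identifier, and all 7 passed the filter on low counts, out of 32520 genes in the count tables and 16321 tested. Readouts that did not enter the choice, from the RfxCas13d and DjCas13d libraries, were tested. Their error term was a spread shared over all 37 libraries, those of Cas7-11 included. The tests were therefore not wholly free of the choice.

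Cas7-11 and the Cas13d enzymes are RNA-guided CRISPR effectors that cut RNA. Cas7-11 is a single-protein type III effector, and Cas13d is a type VI effector that can also cut bystander RNA once its target has bound. The genes have unrelated textbook roles: hnrnpm encodes an RNA-binding protein of pre-mRNA splicing, iars2 the mitochondrial isoleucyl-tRNA synthetase, aga a lysosomal enzyme of glycoprotein breakdown, pdlim1 a PDZ-LIM protein that binds alpha-actinin, and ostf1 an adaptor with SH3 and ankyrin domains first known from bone cells. The symbols zgc:91910 and zgc:100918 are clone names, and no role is given for them in the sources used here.

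RNA was sequenced from whole zebrafish embryos at 6 hours after fertilization, in 37 libraries that fall into 12 groups: the effectors RfxCas13d, DjCas13d and Cas7-11, GFP at 10 pg or 50 pg, and a control or a knockdown arm for each. Groups held 3 libraries, except RfxCas13d knockdown at 10 pg with 2 and both Cas7-11 arms at 10 pg with 4. The labels name neither what the control embryos received, the guides, the strain nor how many embryos made up a library, and the study's design text speaks of knockdown of a microRNA where the sample titles name GFP. Replicates are numbered in the titles, but whether each number is its own clutch is not stated. The p-values therefore reflect only how much these libraries vary, which may be technical.

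Each Cas7-11 library held 17432069 to 23991611 reads in genes and each other library 3944559 to 8034012, so the Cas7-11 values rest on deeper counts. All 10 gastrula markers were at 1 TPM or more in every library, but their spread differed. The marker tbxta was at 139 to 598 TPM, while eve1 ran from 16 to 239 TPM and mxtx2 from 1 to 375 TPM. Of 6 markers of tissues that form later, 5 stayed at or below 1.86 TPM, and ins reached 8.01 TPM at its highest. The lowest mxtx2 value was thus within the range of those later markers. Whether the libraries were alike in stage was not tested. The reporter RNA GFP was lower in every knockdown group: with Cas7-11 it averaged 265 ± 35 TPM in controls and 52 ± 16 TPM in knockdown at 10 pg (SD, n = 4 each), and 1090 ± 342 TPM and 261 ± 46.5 TPM at 50 pg (SD, n = 3 each). Control means were higher with RfxCas13d, 1980 ± 2150 TPM at 10 pg and 12300 ± 8960 TPM at 50 pg (SD, n = 3 each). The RfxCas13d controls spread widely, from 676 to 4460 TPM at 10 pg and from 4230 to 21900 TPM at 50 pg. With DjCas13d they were 3380 ± 251 and 8800 ± 1440 TPM (SD, n = 3 each). Knockdown means were 6.09 and 232 TPM with RfxCas13d, and 15.7 and 62.3 TPM with DjCas13d. The count tables listed GFP for 23 libraries only, so GFP levels are given from the TPM tables. At the same named dose, control GFP was therefore lower with Cas7-11 than with either other effector. The RfxCas13d and DjCas13d control ranges overlapped at both doses, though their means differed. The nuclear RNA malat1 exceeded 5000 CPM (counts scaled to a common library depth) in 5 libraries, none of them Cas7-11: RfxCas13d control replicates 1 and 3 at 10 pg and replicate 1 at 50 pg, and DjCas13d knockdown replicates 1 and 2 at 10 pg. Within the Cas7-11 arms at 10 pg, replicates 1 and 2 stood apart from replicates 3 and 4. The chi-square per degree of freedom between the counts of 2 control libraries was 7 for replicates 1 and 2 and 5.58 for 3 and 4. Across these sets it was 35.8 to 46. In the values below, iars2 parted in both arms and aga in knockdown alone. The controls alone parted for ostf1, pdlim1, zgc:91910 and zgc:100918, and for hnrnpm in the other direction.

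On the length-corrected TPM scale, hnrnpm was the most abundant of the 7 genes in the Cas7-11 controls at 10 pg, at 952 ± 87.3 TPM (SD, n = 4). The level of zgc:91910 in the same libraries was 489 ± 55.2 TPM, but elsewhere it could be the higher of the pair, as in DjCas13d controls at 50 pg with 723 ± 58.7 TPM against 555 ± 17.5 TPM for hnrnpm (SD, n = 3 each). The remaining members were far less abundant there, with aga at 33 ± 3.95, zgc:100918 at 21.3 ± 1.71, ostf1 at 20.2 ± 7.61, pdlim1 at 17.4 ± 4.86 and iars2 at 8.98 ± 2.54 TPM. Below, levels of one gene are compared between libraries in normalised CPM, the CPM of reads in genes after TMM scaling (trimmed mean of M values, which sets libraries to a common scale). The genes were well covered in the Cas7-11 knockdown libraries, where the fewest reads of a member in a library were 126, for pdlim1.

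With Cas7-11, the knockdown levels of the 7 genes were between 28.4% and 55.1% of the control levels, and the libraries of the 2 arms did not overlap for any of them at either dose. Lack of overlap with lower knockdown libraries was found for 2.63% of the genes tested at 10 pg, 7.86% at 50 pg and 0.76% at both. The median log2 fold change of the members was -1.13 at 10 pg and -1.27 at 50 pg, beside -0.02 and 0.01 over all genes tested. Nothing is read from these counts, because the choice of the genes used them. Fewer cells that contain a transcript and less of it per cell cannot be told apart in whole embryos.

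The transcript of hnrnpm, the splicing regulator, had normalised CPM of 1340, 1310, 1230 and 1110 in the Cas7-11 controls at 10 pg and 655, 605, 602 and 672 in the knockdown libraries. At the higher dose the values were 1180, 1270 and 1120 in controls and 600, 661 and 707 after knockdown. The libraries of each arm lay close together, and the highest knockdown library stayed far under the lowest control. The log2 fold changes were -0.98 ± 0.15 and -0.86 ± 0.17 (edgeR estimate ± SE), the smallest of the 7 genes at each dose.

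For iars2, which charges mitochondrial tRNA with isoleucine, controls at 10 pg stood at 33.7, 36.2, 59.7 and 54.6 CPM and knockdown libraries at 17.5, 19.7, 26.9 and 26.9. Both arms were lower in replicates 1 and 2 than in replicates 3 and 4, so the ratio between arms varied less than the levels did. The 50 pg libraries held 43.2, 39.0 and 54.8 CPM in controls and 18.1, 19.2 and 21.4 after knockdown. Log2 fold changes were -1.01 ± 0.17 at 10 pg and -1.22 ± 0.19 at 50 pg.

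The lysosomal enzyme gene aga was at 19.3, 25.5, 24.5 and 24.8 CPM in the 10 pg controls and at 10.3, 11.2, 11.9 and 12.1 CPM in the knockdown embryos. Control replicate 1 was the low one of its group. In the 50 pg libraries aga was at 26.7, 22.2 and 25.1 CPM in controls and at 8.65, 8.67 and 13.3 CPM in knockdown embryos, with replicate 3 above the other two. These values gave log2 fold changes of -1.05 ± 0.19 and -1.27 ± 0.22.

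The cytoskeletal gene pdlim1 showed 12.5, 14.8, 23.7 and 19.1 CPM in controls at 10 pg against 7.41, 7.35, 8.48 and 6.00 CPM after knockdown. Its 50 pg libraries showed 12.6, 13.5 and 20.4 CPM against 7.50, 5.90 and 6.24 CPM. The control libraries spread widely while the knockdown libraries did not, and the arms stayed apart. Log2 fold changes were -1.26 ± 0.19 and -1.24 ± 0.22.

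The adaptor gene ostf1 had the largest fold change of the 7 at each dose, -1.40 ± 0.21 at 10 pg and -1.81 ± 0.24 at 50 pg on the log2 scale. Its 10 pg controls split, with replicates 1 and 2 at 19.5 and 21.5 CPM and replicates 3 and 4 at 37.4 and 40.8 CPM. The knockdown libraries of that dose did not split, at 10.1, 11.4, 12.4 and 11.2 CPM. At 50 pg, ostf1 was at 28.3, 28.3 and 38.0 CPM in controls and at 9.53, 8.38 and 8.95 CPM after knockdown, so that the 50 pg knockdown libraries were all below the 10 pg ones.

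The clone-named gene zgc:91910 was at 220, 226, 268 and 286 CPM in the controls of 10 pg and at 97.5, 97.9, 120 and 95.5 CPM in knockdown libraries, where replicate 3 was the high one. Its 50 pg values were 261, 256 and 296 CPM in controls and 99.5, 73.9 and 103 CPM after knockdown. Both doses left a wide gap between the arms, with log2 fold changes of -1.29 ± 0.17 and -1.55 ± 0.20. Controls of zgc:100918 at 10 pg were at 32.4, 34.5, 35.9 and 39.0 CPM and its knockdown libraries at 13.2, 18.2, 19.1 and 14.3 CPM. The 50 pg values of that gene were 32.7, 34.2 and 34.8 CPM in controls and 13.7, 12.9 and 14.6 CPM after knockdown. Its control libraries were the tightest of the 7 genes at 50 pg, and its log2 fold changes of -1.13 ± 0.12 and -1.30 ± 0.14 had the smallest SEs.

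**Figure D1:**
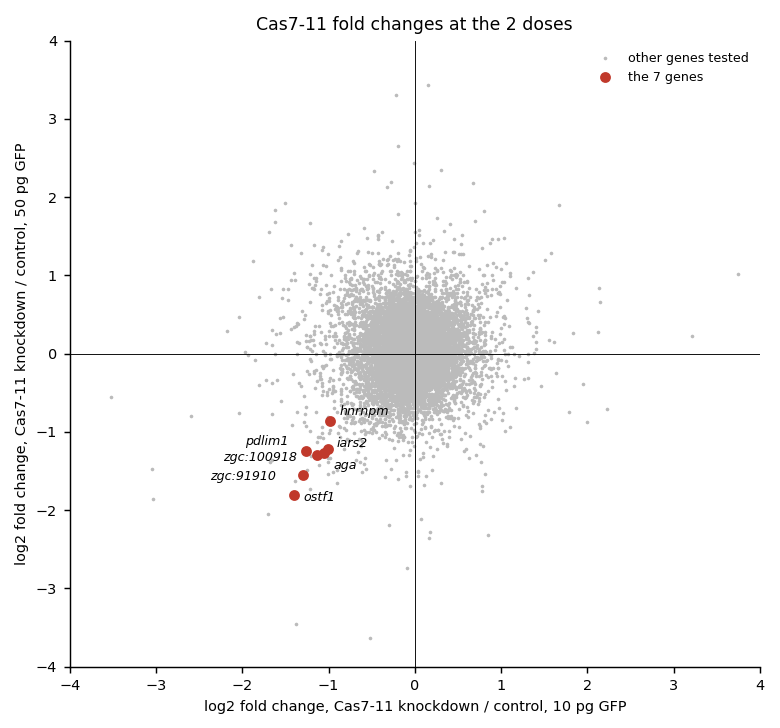
Log2 fold change of Cas7-11 knockdown against control at 10 pg GFP (x axis) and 50 pg GFP (y axis) for 16321 genes tested, 1 of which lies outside the axes; the 7 genes are red. The 7 lie at -0.98 to -1.40 on the x axis and at -0.86 to -1.81 on the y axis, at the lower left edge of the cloud, beside 29 other genes that were at least as low at both doses as the least changed of the 7.

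The choice of the genes coincides with a threshold. With edgeR's quasi-likelihood test and Benjamini-Hochberg adjustment over all genes at 0.05, 12 genes (0.0735%) passed with Cas7-11 at 10 pg, 11 lower (0.0674%) and 1 higher (0.00613%), and 10 genes (0.0613%) were lower and 0 higher at 50 pg. Exactly 7 genes (0.0429%) were lower at both, and these are the 7 described here. Of the 7, hnrnpm lay closest to the threshold. The p-values of the 7 made the choice, so they are no test and are not given. Just outside was NSMAF, at log2 fold changes of -0.89 and -1.01, with 0.0504 as the larger adjusted p of the 2 doses (edgeR). The gene USP10 followed at -0.82 and -0.95, with 0.0606. The gene pla2g15, for a lysosomal phospholipase, had -1.07 and -0.94 and was inside at 10 pg alone, with adjusted p of 0.00604 and 0.127. A larger change did not always place a gene inside: limd2 was at -1.70 and -2.05 with a larger adjusted p of 0.151. In limma fits of log2(TPM + 1), 2 genes instead of 7 were lower at both doses, both of them members, and with DESeq2 16 genes were.

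The Cas7-11 libraries can also be set side by side by replicate number. At 10 pg same-numbered control and knockdown libraries deviated together from their group means, but some unlike numbers within the sets 1 and 2 or 3 and 4 did so too, at correlations of 0.41 for knockdown 1 with control 2 and 0.45 for knockdown 4 with control 3, against 0.51 and 0.41 for the same numbers. The ratios within a number are therefore a description. The ostf1 level after knockdown was 51.8% and 53.0% of the control in replicates 1 and 2 and 33.1% and 27.4% in replicates 3 and 4. For pdlim1 the percentages were 59.4, 49.8, 35.7 and 31.4. For aga they were 53.3, 44.0, 48.4 and 48.8, without the split. Replicates 1 and 2 alone gave log2 fold changes of -0.93 for ostf1 and -0.88 for pdlim1, and replicates 3 and 4 alone gave -1.73 and -1.56. In the other 5 genes these sets differed less, from -1.06 and -1.04 for aga to -1.08 and -0.87 for hnrnpm. The part of the replicate split in these values was not tested.

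**Figure D2:**
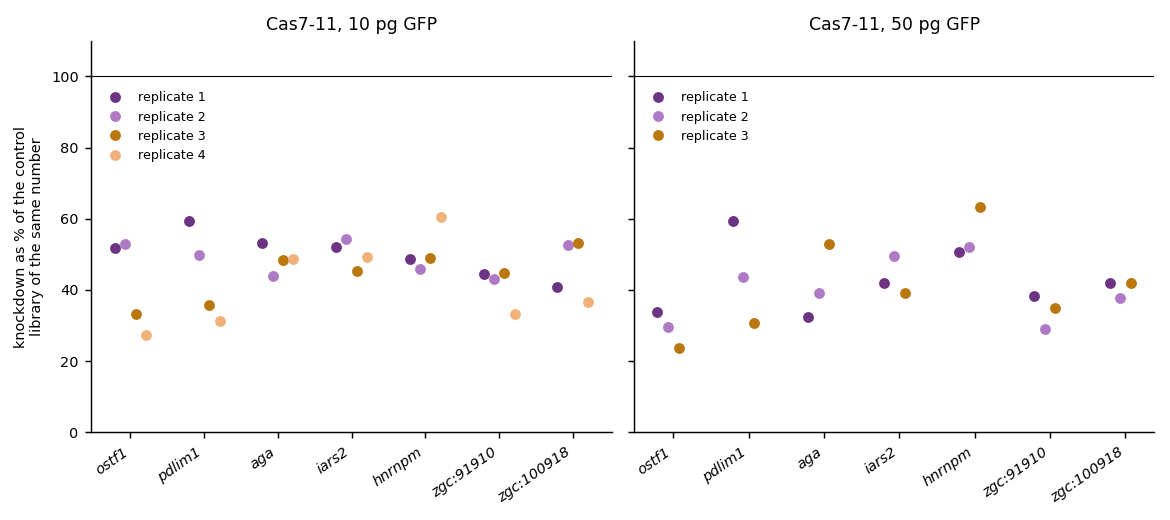
Level in each Cas7-11 knockdown library as a percentage of the control library with the same replicate number, for 10 pg GFP (left) and 50 pg GFP (right); colours mark replicate numbers, and the line marks 100%. All points lie under the line, from 23.6% (ostf1, 50 pg) to 63.2% (hnrnpm, 50 pg), and ostf1 and pdlim1 separate replicates 1 and 2 from 3 and 4 at 10 pg; at 50 pg the numbers do not pair the libraries.

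Set against all 37 libraries, 6 of the 7 genes were lower in each of the 7 Cas7-11 knockdown libraries than in any of the 30 other libraries. This holds for 0.129% of the genes tested, a share from which nothing is read, because the choice of the genes used the Cas7-11 libraries. The exception was hnrnpm, whose 7 Cas7-11 knockdown libraries reached up to 707 CPM while the 3 RfxCas13d knockdown libraries at 50 pg were at 556, 309 and 283 CPM. The narrowest margin belonged to aga, with 13.3 CPM in the highest Cas7-11 knockdown library and 13.9 CPM in DjCas13d knockdown replicate 1 at 10 pg. The widest relative gaps were those of zgc:91910, 120 against 220 CPM, and zgc:100918, 19.1 against 30.2 CPM. For pdlim1, iars2 and zgc:91910 the lowest library outside Cas7-11 knockdown was itself a Cas7-11 control.

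The order of the 12 group means differed between the genes, and most neighbours in it overlapped. The counts below were not made over all genes, and the step down to Cas7-11 knockdown entered the choice. Nothing is therefore read from them. For aga, iars2 and zgc:100918 only 1 of 11 neighbouring pairs did not overlap, the step down to the Cas7-11 knockdown groups. For ostf1, 3 of 11 did not: RfxCas13d knockdown at 50 pg (70.1 CPM) stood above all groups, and both Cas7-11 knockdown groups (11.3 and 8.95 CPM) stood below the rest and apart from each other. For pdlim1, 2 did not, with RfxCas13d knockdown at 50 pg (35.8 CPM) at the top and Cas7-11 knockdown (7.31 and 6.55 CPM) at the bottom. In zgc:91910, 2 of 11 neighbouring pairs did not overlap, DjCas13d knockdown at 50 pg (336 CPM) with Cas7-11 controls at 50 pg (271 CPM), and RfxCas13d knockdown at 10 pg (238 CPM) with Cas7-11 knockdown at 10 pg (103 CPM). The first of these steps does not part the groups above it from those below, since RfxCas13d control replicate 3 at 50 pg was at 270 CPM. In hnrnpm, 3 of 11 did not overlap, and the lowest group was RfxCas13d knockdown at 50 pg at 383 ± 150 CPM (SD, n = 3). Its step from DjCas13d knockdown at 10 pg (1090 CPM) to DjCas13d controls at 50 pg (984 CPM) does not part the groups either. The lowest DjCas13d control at 10 pg was at 912 CPM.

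**Figure D3:**
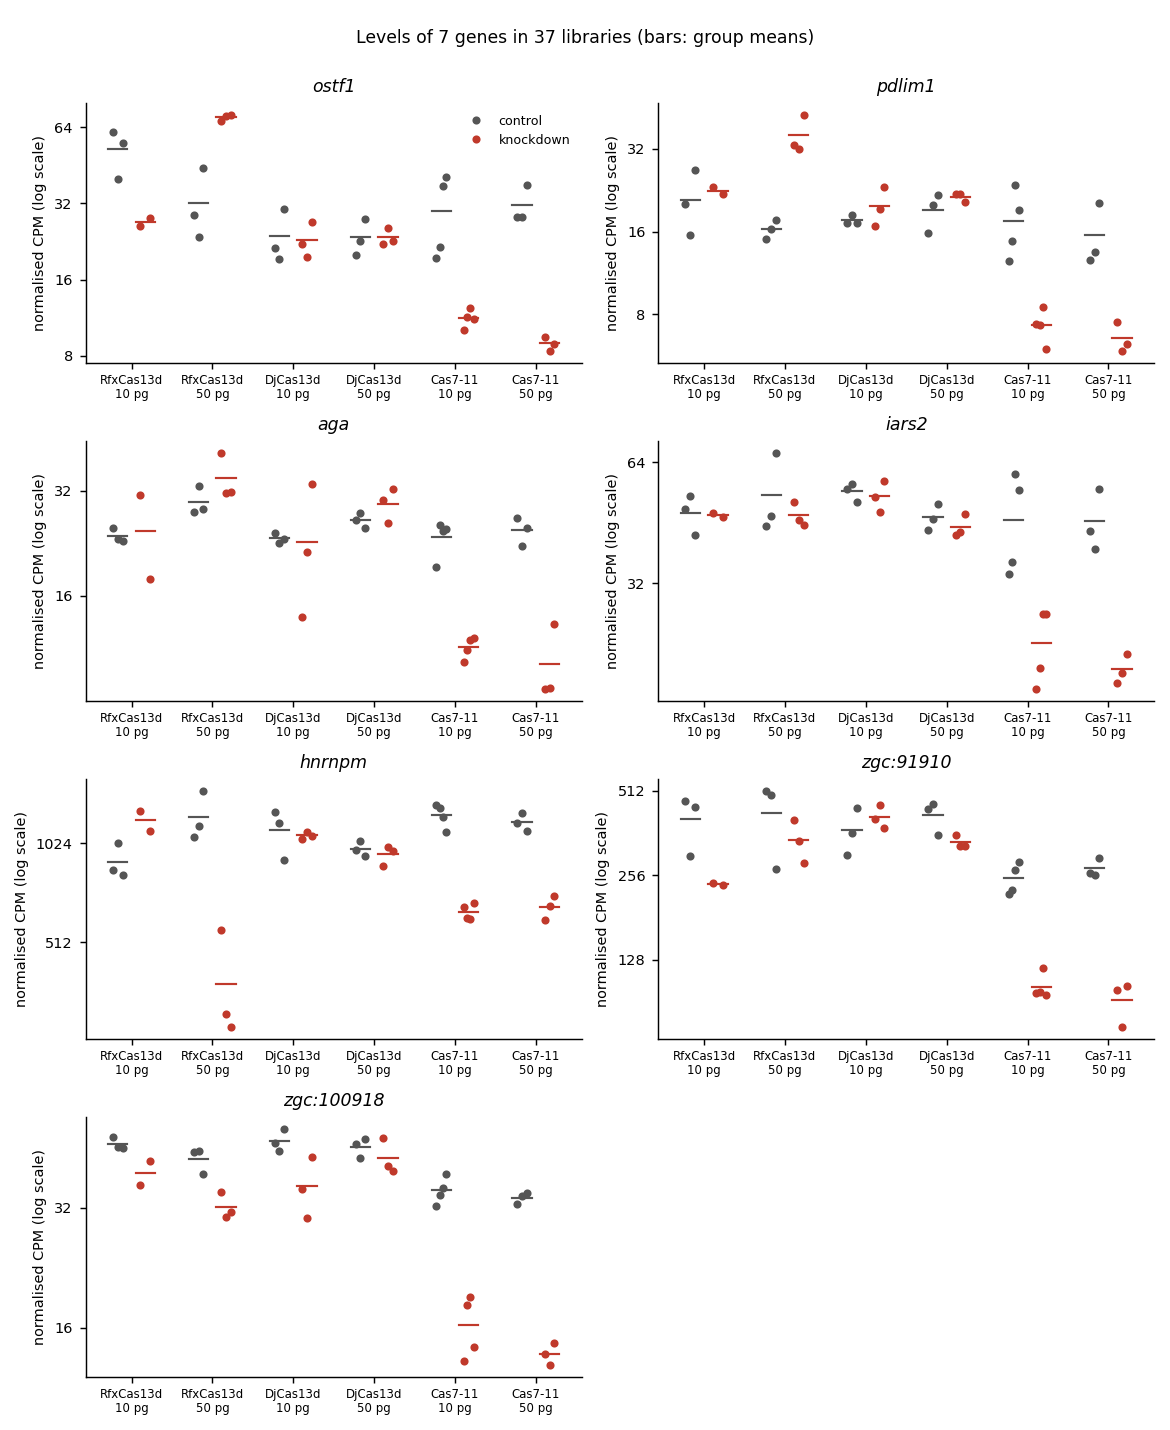
Level of each of the 7 genes in 37 libraries (y axis, normalised CPM on a log scale) by effector and dose, control in grey and knockdown in red; each point is a library and each bar a group mean. Cas7-11 knockdown libraries are lowest for 6 genes, while hnrnpm is lowest (283 to 556 CPM) and ostf1 and pdlim1 are highest (67.6 to 71.6 and 32.0 to 42.5 CPM) in RfxCas13d knockdown libraries at 50 pg.

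With RfxCas13d at 50 pg, ostf1 and pdlim1 rose and hnrnpm fell. Of the 7 genes, 2 rose and 2 fell, and the other 3 did not pass the threshold, in a comparison where 58.8% of all genes tested passed (30% higher and 28.8% lower), so the members' share was near the background. The normalised CPM of ostf1 were 28.9, 23.6 and 44.0 in controls and 67.6, 71.2 and 71.6 after knockdown. Every knockdown library was above every control, a lack of overlap found in 52.8% of genes in either direction, with a log2 fold change of 1.13 ± 0.24 (adjusted p = 0.000182, edgeR). The pdlim1 values were 15.1, 16.3 and 17.7 CPM in controls and 33.0, 32.0 and 42.5 CPM after knockdown, also without overlap, and the log2 fold change was 1.13 ± 0.22 (adjusted p = 7.69e-05, edgeR). In hnrnpm the controls held 1070, 1160 and 1480 CPM and the knockdown libraries 556, 309 and 283 CPM. This was a log2 fold change of -1.69 ± 0.17 (adjusted p = 2.88e-09, edgeR), a fall to 30.9% of the control.

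The fall of zgc:100918 in that comparison was small. Its controls were at 44.2, 44.5 and 38.8 CPM and its knockdown libraries at 35.1, 30.3 and 31.3 CPM, without overlap, at a log2 fold change of -0.40 ± 0.14 (adjusted p = 0.019, edgeR). Without TMM scaling the value was 0.20 (adjusted p = 0.272), and in limma on log2(TPM + 1) it was 0.29 (adjusted p = 0.162). The median gene was at 0.047, 0.638 and 0.601 in these 3 scalings, so zgc:100918 was below the median gene in each. Leaving out control replicate 1 or 2 or knockdown replicate 2 or 3 also ended the call, with adjusted p of 0.057 to 0.0752. For zgc:91910 (-0.32 ± 0.19, adjusted p = 0.156), aga (0.23 ± 0.22, adjusted p = 0.375) and iars2 (-0.17 ± 0.19, adjusted p = 0.475) the libraries of the arms overlapped. Without control replicate 3, zgc:91910 was at -0.56 (adjusted p = 0.0094).

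**Figure D4:**
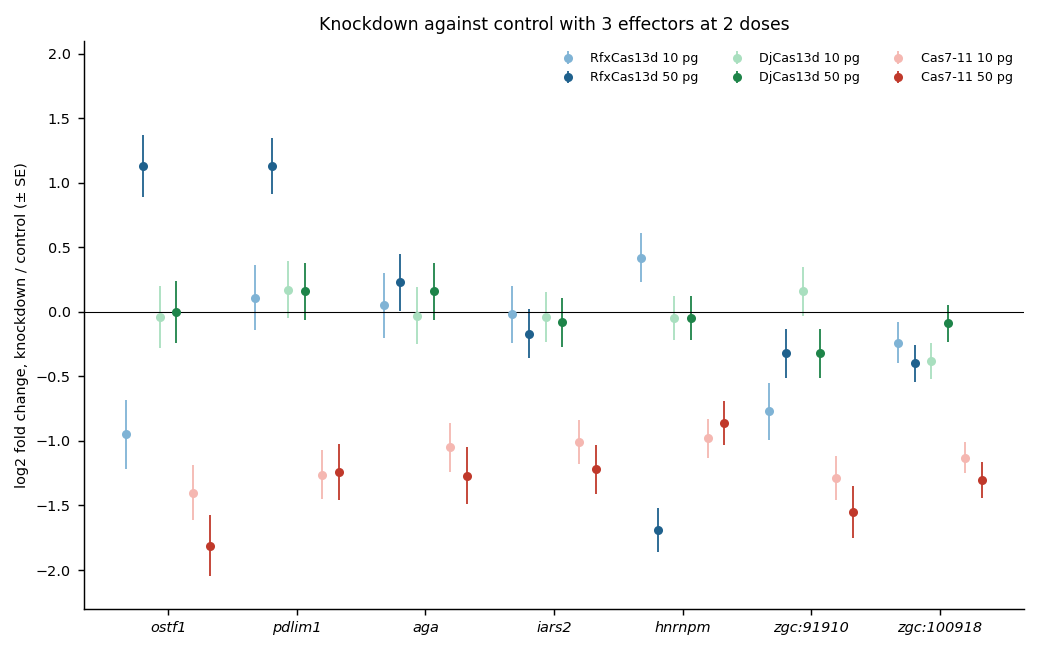
Log2 fold change of knockdown against control (y axis, edgeR estimate, bars ± SE) for the 7 genes (x axis) with 3 effectors at 2 doses. Cas7-11 values, which chose the genes, lie between -1.81 and -0.86; RfxCas13d at 50 pg gives 1.13 for ostf1 and pdlim1 and -1.69 for hnrnpm, and DjCas13d values lie between -0.38 and 0.17.

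In the 50 pg RfxCas13d comparison the median log2 fold change of all genes moved with the scaling. Under library size alone 3 members rose and 1 fell, beside 7380 and 2529 of the 16321 genes. In TPM 4 members rose and 1 fell, beside 8059 and 2062 genes. In all genes, higher calls made up 51.1% of calls after TMM, 74.5% with library size alone and 79.6% in TPM. The directions of ostf1 (1.13, 1.70 and 2.35), pdlim1 (1.13, 1.74 and 2.07) and hnrnpm (-1.69, -1.15 and -0.93) were the same under the 3 scalings. Relative to the median gene of its scaling, each of the 3 moved the same way, since the shift was smaller than their fold changes. For aga the values were 0.23, 0.81 (adjusted p = 0.00202) and 0.90 (adjusted p = 0.00122), and for zgc:91910 -0.32, 0.29 (adjusted p = 0.114) and 0.42 (adjusted p = 0.017), which is no higher than the shift of the median gene. With Cas7-11 the median gene was within 0.039 of 0 in all 3 scalings.

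**Figure D5:**
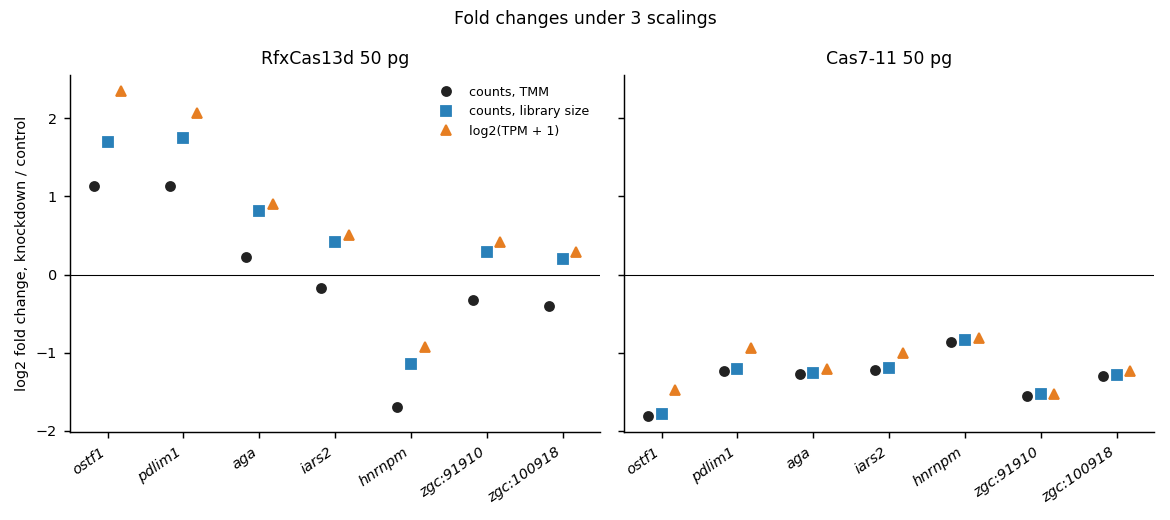
Log2 fold change of knockdown against control (y axis) for the 7 genes (x axis) at 50 pg GFP under 3 scalings: counts with TMM (circles), counts with library size alone (squares) and log2(TPM + 1) (triangles). With RfxCas13d (left) the scalings differ, and zgc:91910, zgc:100918 and iars2 change sign. With Cas7-11 (right), whose libraries chose the genes, all values are negative.

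With RfxCas13d at 10 pg, 2 of the 7 genes fell, ostf1 and zgc:91910, and 0 rose, in a comparison where 14% of the genes tested passed (6.98% lower). The controls of ostf1 were at 61.4, 40.1 and 55.6 CPM and the 2 knockdown libraries at 26.1 and 28.1 CPM. Those of zgc:91910 were at 472, 300 and 447 CPM and its knockdown libraries at 241 and 236 CPM. Neither gene overlapped between arms, as was the case for 46.3% of all genes in either direction, and for both genes the higher control values belonged to replicates 1 and 3, the malat1-rich libraries, at 6162.3 and 6356.3 malat1 CPM against 975.7 in control replicate 2 and 753.9 and 875.8 in the knockdown libraries; the part of malat1 content in the result was not tested. Log2 fold changes were -0.95 ± 0.27 for ostf1 (adjusted p = 0.0218, edgeR) and -0.77 ± 0.22 for zgc:91910 (adjusted p = 0.0214, edgeR). A fit of only the libraries compared called neither gene. With library size alone the log2 fold changes were -0.82 for ostf1 (adjusted p = 0.0582, edgeR) and -0.64 for zgc:91910 (adjusted p = 0.021, edgeR). Without the malat1-rich libraries they were -0.57 (adjusted p = 0.632) and -0.33 (adjusted p = 0.725), with only 1 control library left. Both calls were also lost when control replicate 1, control replicate 3 or either knockdown library was left out, with adjusted p between 0.0793 and 0.174, and with a replicate block (adjusted p = 0.0777 for each).

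The 2 deposited scales disagreed for ostf1 in these libraries. In TPM, ostf1 averaged 20.5 ± 3.06 in controls (SD, n = 3) and 20.2 ± 0.629 after knockdown (SD, n = 2), a log2 fold change of -0.01 (adjusted p = 0.99, limma). Its CPM for each TPM, a ratio of the 2 deposited scales, was 2.46 ± 0.635 in the controls and 1.38 ± 0.123 in the knockdown libraries, against 1.36 to 1.53 on average in the 4 Cas7-11 groups. Other groups were as high as those controls, among them RfxCas13d controls at 50 pg at 2.69 ± 0.614 and DjCas13d knockdown at 10 pg at 2.41 ± 0.212 (SD, n = 3 each). The fall of zgc:91910 also passed in TPM, at -0.51 (adjusted p = 0.0306, limma). The splicing gene hnrnpm was higher in both knockdown libraries (1290 and 1120 CPM) than in the controls (847, 1030 and 818 CPM), at 0.42 ± 0.19 (adjusted p = 0.122, edgeR). It passed with library size alone at 0.53 (adjusted p = 0.0471, edgeR) and in TPM at 0.90 (adjusted p = 0.0122, limma), where the median gene was at 0.123 and 0.239. Without the malat1-rich libraries, which include the 2 lowest controls, it was at 0.23 (adjusted p = 0.816, edgeR). Over all genes at this dose, higher calls made up 50.1% of calls after TMM, 63.8% with library size alone and 81.5% in TPM.

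With DjCas13d, 0 of the 7 genes passed at either dose, against 0% of all genes at 10 pg and 0.00613% at 50 pg (1 gene) in edgeR. At an unadjusted p under 0.05 there were 2553 and 1528 genes, among them 1 and 0 members, and DESeq2 called 98 and 44 genes. The member with the unadjusted p was zgc:100918 at 10 pg, with controls of 46.6, 44.4 and 50.5 CPM and knockdown libraries of 35.6, 30.2 and 42.9 CPM. Its arms did not overlap (11.2% of genes in either direction), the log2 fold change was -0.38 ± 0.14 (adjusted p = 0.241, edgeR), and the 2 lowest values came from the malat1-rich libraries. Without knockdown replicate 3, the one library of that arm that was not malat1-rich, 2643 genes were called, zgc:100918 among them at -0.51 (adjusted p = 0.0299). In the same arm aga spread from 13.9 and 21.3 CPM in the malat1-rich libraries to 33.4 CPM in replicate 3. At 50 pg, 95% intervals of the log2 fold change ran from -0.49 to 0.50 for ostf1, from -0.30 to 0.61 for pdlim1 and from -0.39 to 0.30 for hnrnpm. At that dose the arms of zgc:91910 did not overlap, with lower knockdown libraries (24.8% of genes in either direction lacked overlap). The margin was minimal, since the lowest control and the highest knockdown library both rounded to 357 CPM. The lower bounds for aga, iars2, zgc:91910 and zgc:100918 were -0.29, -0.47, -0.71 and -0.38. No comparison of these bounds with the Cas7-11 estimates is drawn, because those values chose the genes.

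Tests of the difference between responses gave the following. From 10 pg to 50 pg of RfxCas13d, the response of ostf1 differed by 2.08 ± 0.37 (adjusted p = 5.11e-05), of pdlim1 by 1.02 ± 0.34 (adjusted p = 0.0158) and of hnrnpm by -2.12 ± 0.25 (adjusted p = 6.38e-07) on the log2 scale, 3 of 7 members where 40.7% of all genes passed. The pdlim1 difference was lost without control replicate 3 or either knockdown library at 10 pg (adjusted p 0.0501 to 0.0726) and without the malat1-rich libraries (0.53, adjusted p = 0.349). At 50 pg, the RfxCas13d response exceeded that of DjCas13d by 1.13 ± 0.34 for ostf1 (adjusted p = 0.0111) and by 0.98 ± 0.32 for pdlim1 (adjusted p = 0.0172), and was below it by -1.64 ± 0.24 for hnrnpm (adjusted p = 9.83e-06), again 3 of 7 members, where 33.3% of genes passed. Without RfxCas13d knockdown replicate 3 or DjCas13d control replicate 3 the pdlim1 difference had adjusted p of 0.053 and 0.0512. At 10 pg only zgc:91910 differed between these effectors, by -0.93 ± 0.29 (adjusted p = 0.0313, 14.8% of genes passed), and this call was lost with library size alone (-0.68, adjusted p = 0.0523) and without the malat1-rich libraries (-0.36, adjusted p = 0.794), and with 8 of the 11 libraries involved when each was left out. Between doses of DjCas13d, 0 of 7 responses passed in edgeR (0% of genes), 0 had an unadjusted p under 0.05, beside 2877 of all genes, and DESeq2 called 0, beside 239 of all genes.

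GFP dose left the members' control levels without a call. Between controls at 50 pg and 10 pg, 0 of 7 genes passed with RfxCas13d (1.7% of genes) and 0 of 7 with DjCas13d (0%); an unadjusted p under 0.05 was found for 2 and 0 members, beside 2908 and 559 of all genes, and DESeq2 called 0 and 0 members, beside 679 and 0 of all genes. The largest of these differences was that of ostf1 in RfxCas13d controls, 52.4 ± 11 CPM at 10 pg and 32.2 ± 10.6 CPM at 50 pg (SD, n = 3 each), at -0.71 ± 0.24 (adjusted p = 0.113, edgeR). It passed without control replicate 2 at 10 pg (adjusted p = 0.0366, edgeR) or control replicate 3 at 50 pg (adjusted p = 0.0232, edgeR). Over 11 alternatives the difference ran from -1 to -0.25, and the call changed in these 2 alone. The higher controls at 10 pg, replicates 1 and 3, were malat1-rich, and the part of malat1 content was not tested. Over the 6 control groups the means of ostf1 ranged 2.23-fold and those of zgc:91910 1.70-fold, while those of iars2 and aga ranged 1.19-fold and 1.27-fold.

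Other genes of the same families were read in Cas7-11 embryos against a background of 0.0735% of all genes called at 10 pg and 0.0613% at 50 pg, so that a count of 0 is near the background. Among 30 other hnRNP genes tested, 14 other mitochondrial and 17 cytosolic aminoacyl-tRNA synthetase genes, 33 other lysosomal hydrolase genes, 14 other PDZ-LIM and actin adhesion genes and 17 other SH3 adaptor genes, 0 passed in either direction at either Cas7-11 dose, with list medians between -0.12 and 0.12 on the log2 scale. The named hnRNP genes hnrnpd and hnrnpub were at -0.10 ± 0.16 and -0.07 ± 0.13 with Cas7-11 at 50 pg, where hnrnpm was at -0.86. Nothing is read from that difference, because hnrnpm was chosen as low in this comparison and the other genes were not. Of these 125 genes together, 2 at 10 pg and 3 at 50 pg had an unadjusted p under 0.05 with Cas7-11, and DESeq2 called 0 at each dose. With DjCas13d edgeR and DESeq2 again called 0 of the 125 at each dose, where 15 and 9 had an unadjusted p under 0.05.

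With RfxCas13d at 50 pg, 20 of the 30 other hnRNP genes fell and 3 rose, beside 28.8% and 30% of all genes, with a list median of -0.79. Examples are hnrnpa0a at -2.09 ± 0.23, hnrnpd at -1.65 ± 0.17 and hnrnpub at -1.22 ± 0.13 (adjusted p = 7.93e-09, 1.84e-09 and 5.61e-09, edgeR). The gene hnrnpa1b fell less, at -0.72 ± 0.12 (adjusted p = 5.83e-06, edgeR), and was at -0.13 with library size alone. Under library size alone 13 fell and 6 rose, and in TPM 11 fell and 7 rose, with list medians of -0.23 and -0.20 where the median gene was at 0.638 and 0.601. Of the 14 other mitochondrial synthetase genes and their partners 7 rose and 2 fell, with qrsl1, for a subunit of the glutamyl-tRNA amidotransferase, at 2.49 ± 0.30 and gatc, for another subunit of it, at -1.68 ± 0.25, while iars2 itself did not pass. In the PDZ-LIM and adhesion list 6 of 14 rose and 1 fell, with pdlim7 at 5.80 ± 0.74 and vcla, for the adhesion protein vinculin, at 2.48 ± 0.44. The size of the pdlim7 value depended on the scale, at 6.45 with library size alone and 3.60 on log2(TPM + 1). Of the SH3 adaptors 7 of 17 rose and 6 fell, with pacsin3, of membrane trafficking, at 2.19 ± 0.30 and grb2b, of receptor signalling, at -1.16 ± 0.15. Of the lysosomal hydrolases 9 of 33 rose and 11 fell, with the cathepsin gene ctsz at 4.54 ± 0.38 and the fucosidase gene fuca1.1 at -1.59 ± 0.18. Of 17 cytosolic synthetase genes 2 rose and 6 fell. The other scalings move all genes, and the splits of these lists with them. With library size alone and in TPM, the SH3 adaptors had 8 up and 2 down and 10 up and 1 down, the lysosomal genes 19 up and 6 down and 19 up and 5 down, and the cytosolic synthetases 5 up and 1 down and 8 up and 1 down. The mitochondrial list had 10 up and 1 down with library size alone and 9 up and 1 down in TPM. In the PDZ-LIM list 10 were up and 0 down in each of these scalings. Beside the median gene at 0.047, 0.638 and 0.601, the list medians in the 3 scalings were 0.43, 1.01 and 1.24 for the SH3 adaptors, 0.18, 0.74 and 0.70 for the lysosomal genes and -0.21, 0.36 and 0.56 for the cytosolic synthetases. Without the malat1-rich libraries, after TMM, 4 genes of the mitochondrial list rose and 2 fell, with a median of 0.48. The medians were then -0.88 for the hnRNP genes, 0.61 for the PDZ-LIM list and 0.17 for the SH3 adaptors. Those of the lysosomal genes and cytosolic synthetases were -0.05 and -0.32.

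The genes most like each member over the 12 group means (Pearson correlation of mean log2 CPM, 10333 named genes compared, on means that share libraries with the choice of the members) were tent5ba (0.942) and DNAJC5 (0.937) for ostf1, and NSMAF (0.925) and bod1l1 (0.903) for pdlim1. For aga they were golga7 (0.939) and NSMAF (0.931), and for iars2 ehd1a (0.946) and rnmt (0.918). The closest to hnrnpm were gjc4b (0.949) and snai1a (0.930), to zgc:91910 rnmt (0.956) and maf1b (0.952), and to zgc:100918 SLC7A1 (0.965) and nsmce2 (0.936). SLC7A1 was at -1.20 and -1.31 with Cas7-11 at the 2 doses, beyond the values of zgc:100918, without passing at either. Across the 23 RfxCas13d and DjCas13d libraries, which took no part in the choice, the log2 levels of the members did not run together: Pearson correlations between pairs ranged from -0.81 for pdlim1 and hnrnpm to 0.67 for ostf1 and pdlim1, over libraries that differ in effector, dose and malat1 content.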

How the data were processed

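Total RNA of whole zebrafish embryos, made into libraries with a directional kit per the labels, gave 37 libraries in 12 groups, taken from the sample titles. The authors deposited whole-number read counts per gene and a TPM table for each library. The genome build was danRer11, per the submitters' processing notes; aligner, read counter and whether it used strand were not given in the sources used here, so overlapping and antisense genes cannot be told apart. Rows of the count tables that name no gene held 17.3% to 26.4% of reads and were left out. Symbols came from the TPM tables for 20859 genes and from a table of gene names for 8382.

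Counts of all 37 libraries were fitted together with edgeR 4.0.16 (R 4.3.3, TMM scaling, filterByExpr on the 12 groups, robust quasi-likelihood fit). The p-values were adjusted by Benjamini-Hochberg over 16321 genes at a threshold of 0.05. A prior count of 2 entered the log2 levels and their correlations, while fold changes kept edgeR's default. TPM values were tested with limma 3.58.1 on log2(TPM + 1), a scale that understates changes of low genes. The members and the gene lists were chosen with earlier results of these data known. Genes besides the members were named from sets picked by rule, not all of which are printed: the 2 genes of each list with the smallest p at 50 pg of RfxCas13d and of DjCas13d, those next to the threshold at both Cas7-11 doses, and the closest by correlation of group means. The scripts were tested on simulated counts in which few genes changed, as many up as down. That setting is unlike RfxCas13d at 50 pg, where 58.8% of genes passed, so it does not bear on the scaling there. Over 40 pairs of replicates the counts differed beyond sampling noise (chi-square per degree of freedom 3.2 to 58.4), so none was counted as a repeat. Same-numbered arms of Cas7-11 at 10 pg correlated in their deviations at 0.51, 0.34, 0.28 and 0.41, although unlike numbers also correlated (up to 0.45). Only that comparison met the rule for pairing, that each same-number correlation exceeds 0.1. The main fit used group alone, so none of its estimates is paired. Pairing entered only in the alternative with a replicate block, for all effectors and doses. Alternatives were DESeq2 1.42.0 and its size factors, library size alone, no filter, other pseudocounts, a replicate block, subsets of libraries and leaving out each library.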

Additional observations from a re-analysis of the deposited data

Results flagged for a closer look

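Of 14 sets of 4 libraries (the 7 genes in 2 groups) examined for a library far from the rest, 2 had one, where chance gives about 1 in 20. In the Cas7-11 controls at 10 pg, aga was low in replicate 1, at 19.3 normalised CPM, and its gap to the next library was 0.832 of the group's range. In Cas7-11 knockdown at 10 pg, zgc:91910 was high in replicate 3, at 120 normalised CPM, with a gap of 0.9 of the range.

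The response to RfxCas13d differed between 50 pg and 10 pg, in a test of the difference itself, by 2.08 for ostf1, 1.02 for pdlim1 and -2.12 for hnrnpm on the log2 scale. At 10 pg the RfxCas13d response of zgc:91910 differed from the DjCas13d response by -0.93, a call lost in 10 of 16 alternatives. At 50 pg the difference between these effectors was 1.13 for ostf1, 0.98 for pdlim1 and -1.64 for hnrnpm. The pdlim1 calls were lost in 4 of 16 alternatives between doses and in 2 of 17 between effectors. Of all genes, 40.7% passed between doses, and 14.8% and 33.3% passed between effectors at 10 pg and 50 pg.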

How the results depend on the processing

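The Cas7-11 log2 fold changes of the 7 genes kept their sign under the 20 alternatives at 10 pg and the 16 at 50 pg. Nothing is read from the kept sign, because the genes were chosen as lower in these same libraries. The values of ostf1 at 10 pg ranged most, from -1.73 to -0.93. The cause of the differences given next was not tested. After TMM, edgeR called 2281 genes and 2 members with RfxCas13d at 10 pg, 9594 and 4 at 50 pg, 0 and 1 genes with DjCas13d at 10 and 50 pg, 12 and 10 with Cas7-11, and 7 lower at both Cas7-11 doses. DESeq2's size factors gave 1 gene with DjCas13d at 10 pg, and no filter gave 1475 with RfxCas13d at 10 pg. DESeq2 gave 98 and 44 with DjCas13d, 29 and 32 with Cas7-11 and 16 at both doses. On log2(TPM + 1), limma gave 2 and 2 with DjCas13d, 2 with Cas7-11 at 50 pg and 2 genes, 2 of them members, at both doses. On log2(TPM + 0.1) these were 4 with DjCas13d at 10 pg, 3 with Cas7-11 at 50 pg and 3 genes, 3 of them members, at both. With all genes kept they were 5 and 6 with DjCas13d, 7 with Cas7-11 at 10 pg and 2, with 2 members, at both. Without the malat1-rich libraries there were 1 gene and 0 members with RfxCas13d at 10 pg, 24 with DjCas13d at 50 pg, 19 and 16 with Cas7-11 and 12 at both doses. The replicate block gave 348 genes and 0 members with RfxCas13d at 10 pg and 2 genes with DjCas13d at 50 pg. It ended the calls of ostf1 (-0.88) and zgc:91910 (-0.66) at 10 pg of RfxCas13d. Fits of only the libraries compared gave 0 genes and 0 members with RfxCas13d at 10 pg, 6012 at 50 pg, 979 with DjCas13d at 50 pg, and 4 genes with 3 members at both Cas7-11 doses. Cas7-11 replicates 1 and 2 alone at 10 pg gave 1 gene, and 1 gene, a member, at both doses; replicates 3 and 4 alone gave 5. The difference between RfxCas13d and DjCas13d at 10 pg had 1 member called, and 0 with library size alone and 0 without the malat1-rich libraries. With RfxCas13d at 50 pg, zgc:100918 reversed from -0.40 to 0.20 with library size alone, to 0.29 and 0.30 on log2(TPM + 1) and log2(TPM + 0.1), and to 0.29 with all genes kept, and zgc:91910 reversed to 0.42, 0.42 and 0.42 in the same TPM fits. Leaving out each library in turn gave 133 to 4522 genes and 0 to 2 members with RfxCas13d at 10 pg, and 7997 to 9916 genes and 3 to 5 members at 50 pg. It gave 0 to 2643 genes and 0 to 1 members with DjCas13d at 10 pg, 0 to 1 genes at 50 pg, 7 to 11 and 4 to 7 with Cas7-11, and 4 to 7 genes and 4 to 7 members at both doses, the fewest without knockdown replicate 2 at 50 pg. The RfxCas13d dose difference had 2 to 3 members, the effector differences 0 to 2 at 10 pg and 2 to 3 at 50 pg, and the RfxCas13d controls 0 to 1. In the main fit, 40.7%, 14.8%, 33.3% and 1.7% of all genes passed in these comparisons. The shares with a library left out are not given, so nothing is read from these member counts.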
